A study of Mus musculus with 10 samples.

Results

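The collagen genes were taken as every row of the UMI-count table whose symbol is Col, a number, the letter a and a number, which gave 44 of 23589 genes. They were measured by DroNc-seq, a droplet method that counts the RNA of single nuclei, in archived frozen brain of C57BL/6 mice. The libraries came from hippocampus and from cortex, the cortex being dissected as prefrontal cortex according to the protocol in the labels. The series names 4 mice and the labels give no genotype, treatment or age for any library. Each region has 5 libraries, numbered 0 to 3 in the titles with number 0 split into a and b. The 2 libraries of number 0 were summed, which leaves 4 units per region, and the labels do not tie a number to a mouse, so a p-value reflects how far units of a region scatter, and that scatter could be purely technical.

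Collagens are extracellular proteins of 3 chains wound into a triple helix. Fibril-forming types build the fibres of connective tissue, type IV forms the sheet of the basement membrane around vessels, type VI forms beaded filaments, and fibril-associated and transmembrane types attach to fibrils or to the cell surface. In brain most collagen is found in the meninges and along vessels, while neurons are known to make several of the less abundant, non-fibrillar types.

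Together the 44 genes held 18993 UMIs (unique molecular identifiers, 1 per captured RNA molecule), 7676 in hippocampus and 11317 in cortex, from 5658 nuclei and 5966 nuclei. Library totals ran between 1443244 and 2600788 UMIs over all genes. Summed over the 44 genes, collagens made up 766 to 1009 UMIs per 1000000 (CPM) in the hippocampal units, against 847 to 1136 CPM in the cortical units, and these ranges overlap. At least 200 UMIs were reached by 19 members, and Col8a2 (27 UMIs), Col4a6 (18), Col6a5 (9), Col6a6 (9) and Col10a1 (1) stayed under 30. Levels in CPM refer to all UMIs of the nuclei summed and are compared within a gene only, since they are not per length. Number 0 differed from the rest of its region: the chi-square per degree of freedom between its libraries and the others was 3.99 to 4.31 in hippocampus and 6.02 to 6.78 in cortex, against 1.34 to 1.70 among numbers 1 to 3.

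The sequences upstream of the start of 4 members on which the results turn are printed here, from RefSeq on GRCm38.p6 and cut to the bases outside annotated exons. The first pair are neighbours: Col6a1 (chr10:76708792-76726168, minus strand) and Col6a2 (chr10:76595762-76623630, minus strand), chains of 1 type VI heterotrimer, lie 85.2 kb apart. The second pair are Col11a1 (chr3:114030540-114220718, plus strand) and Col19a1 (chr1:24261890-24587472, minus strand), which are the members with the most UMIs in interneurons. Capitals mark a GC box (GGGCGG) or a CCAAT box on either strand. Each window is written 5′ to 3′ on the gene's own strand.
Col6a1, chr10:76726169-76726294: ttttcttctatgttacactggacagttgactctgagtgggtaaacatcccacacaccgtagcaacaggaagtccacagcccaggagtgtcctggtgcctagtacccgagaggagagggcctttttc
Col6a2, chr10:76623631-76623880: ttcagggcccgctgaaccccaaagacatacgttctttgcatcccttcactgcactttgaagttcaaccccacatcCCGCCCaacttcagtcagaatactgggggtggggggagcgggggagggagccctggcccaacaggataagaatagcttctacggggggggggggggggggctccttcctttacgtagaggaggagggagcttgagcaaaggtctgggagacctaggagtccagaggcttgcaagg
Col11a1, chr3:114030290-114030539: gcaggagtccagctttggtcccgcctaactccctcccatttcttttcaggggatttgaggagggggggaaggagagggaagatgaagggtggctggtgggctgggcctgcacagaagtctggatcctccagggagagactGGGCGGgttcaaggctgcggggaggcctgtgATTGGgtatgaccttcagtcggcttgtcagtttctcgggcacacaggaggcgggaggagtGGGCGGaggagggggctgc
Col19a1, chr1:24587473-24587687: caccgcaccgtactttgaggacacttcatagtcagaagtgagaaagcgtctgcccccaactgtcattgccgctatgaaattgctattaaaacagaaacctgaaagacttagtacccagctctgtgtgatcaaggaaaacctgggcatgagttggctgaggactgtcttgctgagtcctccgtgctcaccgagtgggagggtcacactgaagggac
Col6a1 and Col19a1 held neither box nor a TATAAA, Col6a2 held 1 GC box, and Col11a1 held 2 GC boxes and 1 CCAAT box. Windows of 250 bases before the start were matched for 35 of the 44 members, giving 38 windows. A GC box was present in 57.9% of these windows, against 32.7% of the 32851 windows of all genes, a CCAAT box in 34.2% against 33.8%, and a TATAAA in 13.2% against 12.4%. The median share of G and C was 59.0% in the members' windows, against 52.4% in all windows, and its part in the GC box counts was not tested.

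Col4a1 (chr8:11198423-11312826, minus strand) and Col4a2 (chr8:11312805-11449287, plus strand), the chains of the common type IV collagen, start head to head. In the annotation their first bases overlap by 22 bases, shown here because reads from the shared stretch can be told apart only by strand, and the sources used here do not say whether strand was used in counting.
Col4a1 and Col4a2, chr8:11312805-11312826, plus strand: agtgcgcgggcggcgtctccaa

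Over all nuclei, hippocampus differed from cortex most in the type VI chains and in several fibril-associated chains, which were lower, and in Col11a1, Col11a2, Col9a3 and Col4a5, which were higher. In edgeR's quasi-likelihood test 30 of the 44 members passed the filter on low counts, 4 were higher in hippocampus and 7 lower at an adjusted p under 0.05. Among all 12855 genes tested 17.7% were called, 9.19% higher and 8.53% lower, against 36.7% of the members tested. Of the 11 called members, 9 reached the filter's 4.2 CPM in all 4 units of the lower region as well, while Col22a1 reached it in 3 and Col4a5 in 1. The units of hippocampus and cortex did not overlap for 11 members, and for 21.4% of all genes. The members' median log2 fold change was -0.01 and that of all genes -0.01. Sums over all nuclei cannot tell fewer nuclei of a type apart from less RNA per nucleus, and the classes of nuclei are taken in turn afterwards.

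**Figure D1:**
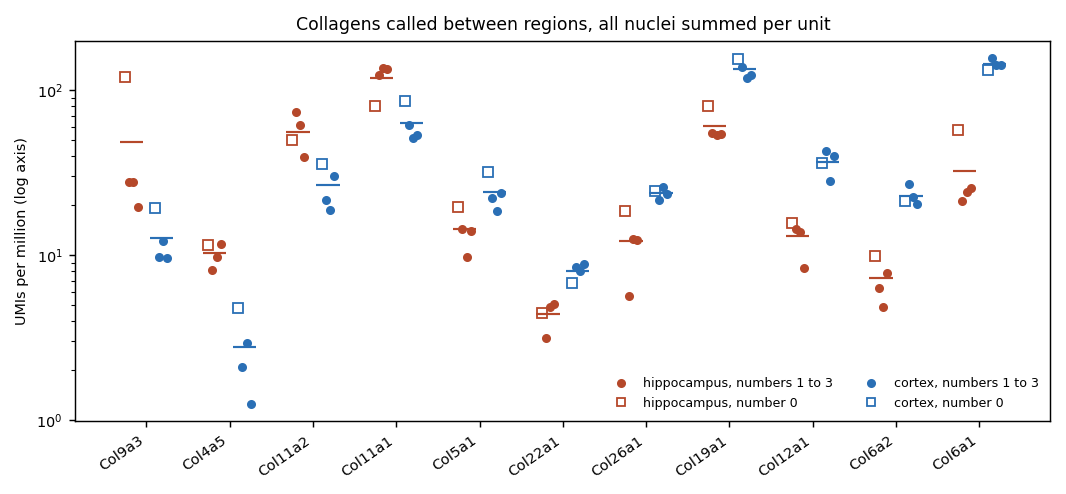
Levels of the 11 collagens called between regions, in CPM on a log axis, for the 4 units of hippocampus (left of each pair) and cortex (right); open squares are number 0, filled circles numbers 1 to 3, and lines are means. Col6a1 lies between 21.3 and 57.4 CPM in hippocampus, against 133 to 157 CPM in cortex, while number 0 of hippocampus sits apart for Col9a3 at 120.0 CPM.

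Type VI chains were lower in hippocampus. Col6a1, the α1 chain, was at 57.4, 21.3, 24.3 and 25.6 CPM in hippocampus (numbers 0 to 3), against 133, 157, 143 and 142 CPM in cortex. All cortical units were above all hippocampal units, and number 0 was the highest of hippocampus. The means were 32.2 ± 16.9 and 144 ± 9.93 CPM (SD, n = 4 each), a log2 fold change of -2.08 ± 0.24 (SE; edgeR adjusted p = 0.000101), which became -2.63 with numbers 1 to 3 alone. Col6a2, the α2 chain, was at 9.91, 6.28, 4.85 and 7.8 CPM in hippocampus, against 21.3, 26.9, 22.6 and 20.5 CPM in cortex. The groups again did not overlap (-1.58 ± 0.22, edgeR adjusted p = 0.000338). Of the 6 type VI genes 3 were tested, and Col6a1 and Col6a2 were called.

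Among the 9 fibril-associated genes, which bind to fibrils or lie close to basement membranes, 8 were tested, 1 was higher and 3 were lower. Col19a1, a chain known in mouse from muscle and from interneurons that form synapses, was at 80.3, 55.2, 53.4 and 54.0 CPM in hippocampus, against 156, 139, 119 and 124 CPM in cortex. Its groups did not overlap, with a log2 fold change of -1.14 ± 0.14 (edgeR adjusted p = 0.000199). Col12a1, a chain of tendon and fascia, was at 15.6, 14.4, 13.9 and 8.36 CPM in hippocampus, against 36.3, 42.9, 28.1 and 40.1 CPM in cortex. It was lower in every hippocampal unit (-1.48 ± 0.20, edgeR adjusted p = 0.000338). Col22a1, a chain of tissue junctions, was at 3.14 to 5.01 CPM in hippocampus, against 6.81 to 8.76 CPM in cortex (-0.86 ± 0.26, edgeR adjusted p = 0.0367), a call that was lost in several other settings, DESeq2 among them.

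Col9a3, a type IX chain of cartilage, was the fibril-associated gene that was higher. It was at 120.0, 27.6, 27.7 and 19.5 CPM in hippocampus, against 19.3, 9.68, 12.2 and 9.6 CPM in cortex. Number 0 was the highest unit of each region and stood far above the rest in hippocampus, where it alone held the choroid plexus-like nuclei. The log2 fold change was 1.97 ± 0.50 (edgeR adjusted p = 0.0154) over all units, 1.23 with numbers 1 to 3 alone (edgeR adjusted p = 0.000159) and 1.19 ± 0.28 without choroid plexus-like and ependymal-like nuclei (edgeR adjusted p = 0.00939). Col16a1, a widely made fibril-associated chain, was at 55.0, 42.1, 56.1 and 54.0 CPM in hippocampus, against 68.7, 53.5, 45.3 and 58.0 CPM in cortex, and did not pass the test (edgeR adjusted p = 0.572).

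Of the 11 fibril-forming genes 9 were tested, 2 were higher and 1 was lower. Col11a1, the α1 chain of type XI, was at 80.6, 124, 136 and 135 CPM in hippocampus, against 85.8, 61.5, 51.6 and 53.4 CPM in cortex. Number 0 of hippocampus fell within the cortical range, and the other hippocampal units lay above it. The log2 fold change was 0.87 ± 0.20 (edgeR adjusted p = 0.00789), or 1.24 with numbers 1 to 3 alone. Col11a2, the α2 chain, was at 50.1, 73.4, 61.7 and 39.6 CPM in hippocampus, against 35.6, 21.5, 18.9 and 30.1 CPM in cortex. Every hippocampal unit was above every cortical unit (1.03 ± 0.22, edgeR adjusted p = 0.00615). Col5a1, a chain that sets fibril diameter, was at 19.6, 14.4, 9.7 and 13.9 CPM in hippocampus, against 31.8, 22.3, 18.5 and 23.8 CPM in cortex, with ranges that overlap (-0.71 ± 0.22, edgeR adjusted p = 0.0424). Its call was lost in DESeq2 and without number 1, 2 or 3 of hippocampus or number 0, 1 or 3 of cortex, with log2 fold changes of -0.93 to -0.52 over all alternatives (highest adjusted p = 0.109).

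The type I and remaining type V chains did not pass the test. Col1a2, the α2 chain of type I collagen, was at 31, 8.16, 13.2 and 13.4 CPM in hippocampus, against 15.9, 10.1, 15.9 and 15 CPM in cortex, with number 0 of hippocampus highest (0.30 ± 0.32, edgeR adjusted p = 0.594). Col5a2 was at 11.2, 10.04, 13.2 and 17.8 CPM in hippocampus, against 13.6, 10.5, 5.87 and 8.76 CPM in cortex. Col5a3 was at 13.6, 11.3, 16.6 and 9.47 CPM in hippocampus, against 14.5, 15.6, 11.3 and 12.5 CPM in cortex. The ranges of both type V chains overlap between the regions.

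Type IV collagen was called through 1 minor chain only. Col4a5, a chain of specialised basement membranes, was at 11.5, 8.16, 9.7 and 11.7 CPM in hippocampus, against 4.76, 2.1, 2.94 and 1.25 CPM in cortex. The groups did not overlap, and the log2 fold change of 1.77 ± 0.34 (edgeR adjusted p = 0.00286) was 1.47 ± 0.35 without choroid plexus-like and ependymal-like nuclei (edgeR adjusted p = 0.0118). The common chains had overlapping ranges and did not pass the test. Col4a1 was at 110, 87.3, 81.1 and 101 CPM in hippocampus, against 140, 77.0, 75.9 and 75.5 CPM in cortex (0.02 ± 0.19, edgeR adjusted p = 0.959). Col4a2 was at 141, 116, 101 and 108 CPM in hippocampus, against 168, 100, 110 and 97.2 CPM in cortex (-0.05 ± 0.17, edgeR adjusted p = 0.895). Number 0 was the highest unit of both genes in both regions.

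None of the 3 transmembrane genes tested was called. Col25a1, a transmembrane collagen of neurons that is shed from the cell surface, was at 35.7, 47.1, 54.0 and 57.4 CPM in hippocampus, against 34.7, 34.5, 35.7 and 24.6 CPM in cortex. The lowest hippocampal unit, at 35.73 CPM, lay just above the highest cortical unit, at 35.65 CPM. The difference missed the threshold (0.54 ± 0.18, edgeR adjusted p = 0.052), and the gene was called with numbers 1 to 3 alone, at 0.74 (edgeR adjusted p = 0.000571). Col23a1 was at 7.56, 6.91, 6.93 and 7.8 CPM in hippocampus, against 9.98, 13.0, 9.65 and 17.1 CPM in cortex, a difference of -0.76 ± 0.25 that missed the threshold (edgeR adjusted p = 0.0535) and passed with numbers 1 to 3 alone (edgeR adjusted p = 0.0253). Every hippocampal unit of Col23a1 lay below every cortical unit.

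Of the other members, Col26a1, a short collagen with an EMI domain, was at 18.5, 5.65, 12.5 and 12.3 CPM in hippocampus, against 24.5, 21.5, 26.0 and 23.4 CPM in cortex. It was lower in every hippocampal unit (-0.89 ± 0.25, edgeR adjusted p = 0.0231), a call that was lost without number 2 or 3 of hippocampus or number 2 of cortex (highest edgeR adjusted p = 0.0632). Col15a1, a basement membrane collagen, was at 18.5, 14.4, 11.8 and 11.1 CPM in hippocampus, against 18.6, 7.58, 10.1 and 12.1 CPM in cortex, and Col7a1, the collagen of anchoring fibrils, was at 13.3, 7.53, 13.9 and 8.36 CPM in hippocampus, against 13.2, 9.68, 7.97 and 7.1 CPM in cortex. The ranges of both overlap.

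**Figure D2:**
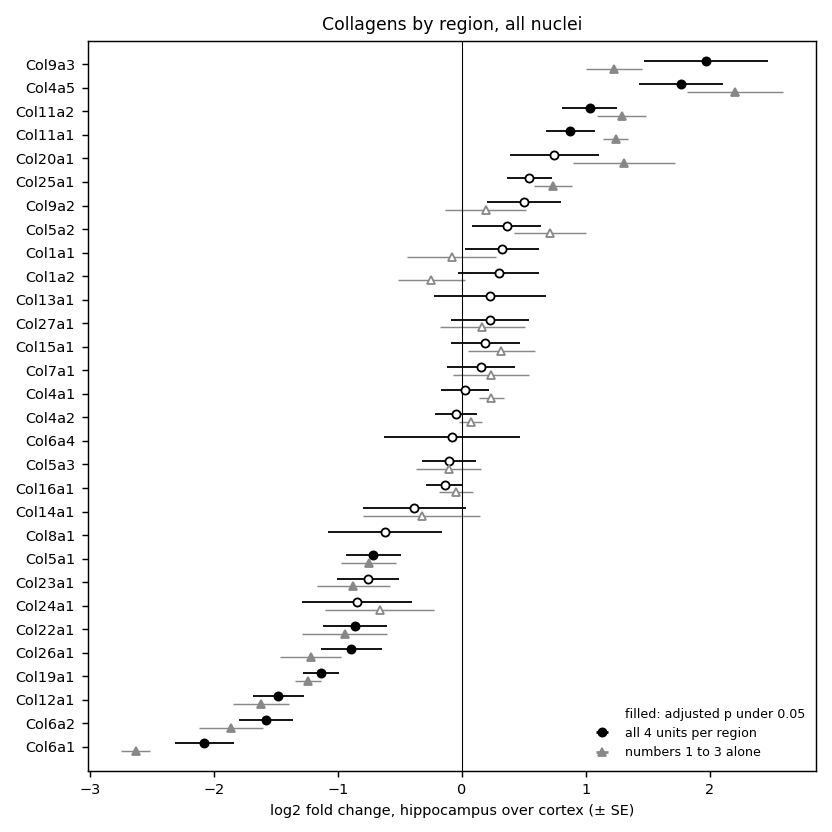
Log2 fold change, hippocampus over cortex, of the 30 tested collagens over all nuclei, with SE bars, for all units (circles) and for numbers 1 to 3 alone (grey triangles, where tested); filled symbols pass an edgeR adjusted p under 0.05. In all units the 4 genes to the right, led by Col9a3 at 1.97, and the 7 to the left, led by Col6a1 at -2.08, were called.

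The nuclei were grouped into classes without using any collagen, by clustering on other genes and naming clusters from marker genes, and the names are rebuilt here and carry the ending -like. Excitatory neuron-like nuclei held 59.7% of all UMIs in cortex and 46.4% in hippocampus. They held 62.1% of hippocampal and 70.5% of cortical Col6a1 UMIs. Inhibitory neuron-like nuclei held 43.3% of the Col19a1 UMIs of hippocampus, with 5.27% of all its UMIs, and 33.8% of those of cortex, with 10.7% of all its UMIs. Choroid plexus-like nuclei held 51.5% of the hippocampal Col9a3 UMIs with 0.718% of all UMIs, and astrocyte-like nuclei held 55.9% of the hippocampal Col11a2 UMIs with 7.61% of all UMIs.

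Microglia-like nuclei, named for the immune cells of the brain, also held UMIs of these genes. In cortex they held Col6a1 at 128, 241, 155 and 218 CPM, Col19a1 at 197, 116, 99.6 and 123 CPM, Col11a1 at 53.6 to 79.9 CPM and Col4a1 at 50.8 to 143 CPM. In hippocampus they held Col6a1 at 44.5, 33.8, 0 and 0 CPM, Col4a1 at 0 to 50.7 CPM and Col11a1 at 37.3 to 152 CPM. Some classes lay well below these levels and others above them. Endothelial-like nuclei of cortex held Col6a1 at 11.1 to 55.3 CPM, Col19a1 at 0 to 53.3 CPM and Col11a1 at 0 to 31.5 CPM, and dentate granule-like nuclei of hippocampus held Col11a1 at 0 to 18.1 CPM. Microglia-like values are given beside other classes as measurements only. Pooled over cortex, microglia-like nuclei held Col6a1, Col19a1, Col4a1 and Col11a1 at 174, 150, 104 and 63.5 CPM. All cortical nuclei together held these genes at 142, 138, 100 and 67.0 CPM. Pooled over hippocampus, microglia-like nuclei held them at 30.1, 126, 18.1 and 108 CPM, against 38.7, 65.8, 98.9 and 109 CPM in all nuclei. The part of RNA released from broken nuclei in any of these levels was not tested.

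**Figure D3:**
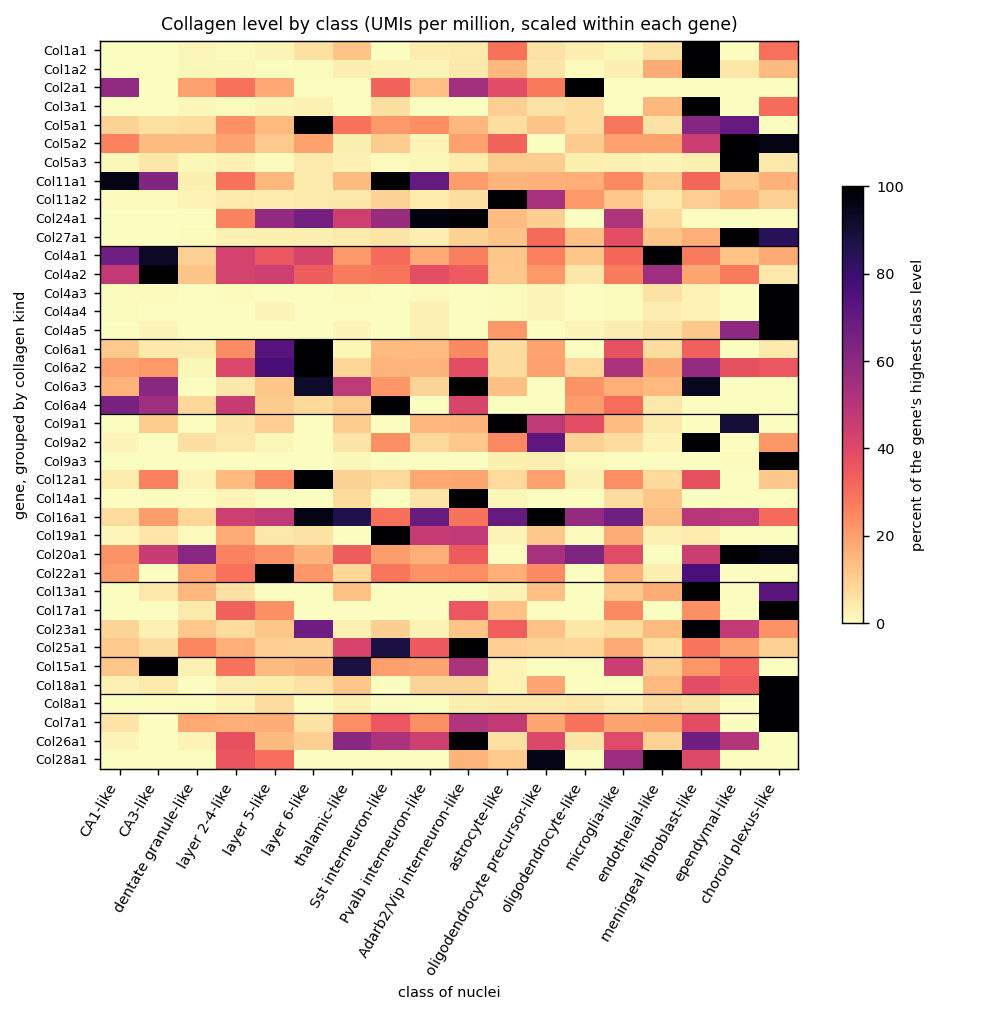
Level of collagens with at least 30 UMIs in each class of nuclei, pooled over both regions, as a percent of that gene's highest class shown. Rows are genes, grouped by kind of collagen, and columns are classes. Mural-like nuclei, unnamed nuclei and excitatory nuclei with no named subtype are left out. Some highest classes rest on few UMIs, such as 1 UMI of Col17a1 in choroid plexus-like and 1 of Col20a1 in ependymal-like nuclei. Among the classes shown, Col19a1 is highest in Sst-like interneuron nuclei, Col9a3 in choroid plexus-like nuclei and Col1a2 in meningeal fibroblast-like nuclei.

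In excitatory neuron-like nuclei, hippocampus was lower than cortex in 6 collagens and higher in Col11a1. Of 18 members tested 7 were called, or 38.9%, against 16.2% of 10950 genes (8.65% higher and 7.59% lower), and the regions did not overlap for 9 members, against 20.2% of genes. The members' median log2 fold change was -0.63, that of all genes -0.01. Col6a1 was at 79.4, 26.3, 31.9 and 42.3 CPM in hippocampus, against 161, 184, 162 and 168 CPM in cortex (-1.80 ± 0.24, edgeR adjusted p = 0.000168). Col11a1 was at 90.2, 132, 114 and 116 CPM in hippocampus, against 79.9, 41.3, 48.6 and 45.9 CPM in cortex (1.05 ± 0.21, edgeR adjusted p = 0.00331). For both genes the 4 hippocampal units lay wholly to 1 side of the cortical units. The cortical Col6a1 level lay within the range of cortical microglia-like nuclei and above that of cortical endothelial-like nuclei.

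Col12a1 had a mean of 14.1 ± 4.24 CPM in hippocampus, against 42.7 ± 3.96 CPM in cortex (-1.55 ± 0.22, edgeR adjusted p = 0.000267). Col16a1 had a mean of 23.0 ± 8.55 CPM in hippocampus, against 59.1 ± 7.47 CPM in cortex (-1.26 ± 0.22, edgeR adjusted p = 0.00123). Cortical microglia-like nuclei held Col16a1 at 44.2 to 108 CPM and cortical endothelial-like nuclei at 0 to 26.9 CPM. Col6a2 was lower as well (-1.22 ± 0.28, edgeR adjusted p = 0.0088) and reached the filter's 6.9 CPM in 3 hippocampal units. Col19a1 was at 69.8, 27.6, 21.3 and 11.1 CPM in hippocampus, against 112, 94.7, 113 and 106 CPM in cortex (-1.56 ± 0.33, edgeR adjusted p = 0.00514), the cortical units lying within or below the range of microglia-like nuclei and above that of endothelial-like nuclei. Col26a1 was at 13.3, 0, 0 and 1.11 CPM in hippocampus, against 24.1, 17.6, 26.0 and 23.6 CPM in cortex (-2.13 ± 0.56, edgeR adjusted p = 0.0183), with cortical microglia-like nuclei at 17.9 to 27.1 CPM.

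The classes making up excitatory neuron-like nuclei differ between the regions, and number 0 of hippocampus held 190 layer 2-4-like nuclei, against 7 to 10 in the other hippocampal units. Without layer 2-4-like nuclei Col6a1 was at a log2 fold change of -2.47 and Col11a1 at 2.04, and both stayed called. Layer 6-like nuclei held Col6a1 at 331 to 556 CPM in 3 hippocampal units, against 316 to 432 CPM in cortex. Layer 5-like nuclei held it at 17.1 to 236 CPM in hippocampus, against 206 to 484 CPM in cortex. In hippocampus CA1-like, CA3-like and dentate granule-like nuclei held it at 0 to 16.4, 0 to 51.7 and 3.18 to 37.5 CPM. The part of these classes in the regional difference was not tested. Col26a1 lost its call in DESeq2 (adjusted p = 0.141) and without number 1, 2 or 3 of hippocampus, and it reached the filter's 6.9 CPM in 1 hippocampal unit only.

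In inhibitory neuron-like nuclei 7 members were tested and 1 was called, Col6a1, against 0.587% of 5114 genes (0.176% higher and 0.411% lower). It was at 34.9, 0, 10.7 and 26.2 CPM in hippocampus, against 90.1, 104, 105 and 51.8 CPM in cortex (-1.96 ± 0.45, edgeR adjusted p = 0.0277). The regions did not overlap, as for 6.06% of genes. On 10 UMIs in hippocampus, no hippocampal unit reached the filter's 47.3 CPM, so the gene was tested through the cortical units, where it is high. The call was lost without number 1, 2 or 3 of hippocampus (edgeR adjusted p up to 0.188). The gene did not pass the filter in 8 of the 18 alternatives, among them those without number 0, 1 or 2 of cortex, and had no adjusted p in DESeq2; the other 9 gave log2 fold changes of -2.55 to -1.70. The cortical units lay below every unit of cortical microglia-like nuclei, and the summed level of 8 excitatory markers in these nuclei was 776 to 1915 CPM in hippocampus, against 1842 to 2063 CPM in cortex, all 8 detected. The part of these markers' RNA in the difference was not tested. Col25a1 had a mean of 199 ± 106 CPM in hippocampus, against 92.7 ± 18.7 CPM in cortex and missed the threshold (1.09 ± 0.30, edgeR adjusted p = 0.0924).

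In astrocyte-like nuclei 2 members passed the filter and 1 was called, against 4.52% of 2387 genes (2.18% higher and 2.35% lower). The called member, Col11a2, reached the filter's 89.0 CPM in 4 hippocampal and 2 cortical units. It thus passed through the hippocampal units, where it is high, and the count called is no result about the family. Col11a2 was at 287, 503, 530 and 408 CPM in hippocampus, against 233, 88.4, 51.5 and 236 CPM in cortex (1.28 ± 0.30, edgeR adjusted p = 0.00649). All hippocampal units lay above all cortical units, as for 9.55% of genes in either direction. Col9a3 was at 154, 154, 146 and 174 CPM in hippocampus, against 89.0, 118, 103 and 67.3 CPM in cortex, and did not pass (0.88 ± 0.34, edgeR adjusted p = 0.135) although its units did not overlap. The cortical units held 20 to 77 astrocyte-like nuclei, against 122 to 186 in hippocampus, and the summed level of 8 choroid plexus markers in them was 82.2 to 2562 CPM in hippocampus and 178 to 348 CPM in cortex, with a part in the result that was not tested.

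Endothelial-like nuclei held the type IV chains in both regions. Col4a1 was at 396, 214, 103 and 281 CPM in hippocampus, against 274, 266, 209 and 108 CPM in cortex, and Col4a2 was at 311, 161, 129 and 179 CPM in hippocampus, against 208, 133, 135 and 126 CPM in cortex. The ranges overlap, whereas 8.97% of genes had ranges apart. edgeR called 0 of the 2 members tested (adjusted p = 0.725 and 0.58), 0 at an unadjusted p under 0.05, and 3.19% of 2976 genes were called (1.08% higher and 2.12% lower). These nuclei also carried mural markers, at 8158 to 10774 CPM summed over 9 genes in hippocampus and 6008 to 8983 CPM in cortex, and whether mural nuclei, doublets or shared RNA carried them was not tested. In oligodendrocyte precursor-like nuclei no member passed the filter (485 genes tested, 9.9% called, 4.54% higher and 5.36% lower), and the hippocampal units 1 and 3 held too few meningeal fibroblast-like nuclei (6 and 8) for a comparison of regions.

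Within cortex, the deep layers differed from the upper layers in 8 of the 11 collagens that passed the filter. Layer 5 and 6-like nuclei were higher than layer 2-4-like nuclei in Col6a1, Col12a1, Col23a1, Col5a1, Col6a2 and Col16a1 and lower in Col19a1 and Col11a1. Of 11 members tested 8 were called, or 72.7%, against 13.1% of 8394 genes (6.31% higher and 6.8% lower), and 5 members had ranges that did not overlap, against 10.4% of genes. The members' median log2 fold change was 0.66, that of all genes 0.01. Because the classes were built from the other genes, the share of all genes called is raised by construction. Of the 8 called members, 3 (Col6a1, Col19a1 and Col16a1) reached the filter's 18.9 CPM in all 4 units of the lower class. Col11a1 reached it in 3 of them, Col12a1 in 2, Col5a1 and Col6a2 in 1 each and Col23a1 in none. The share of members called is thus no result about the family.

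Col6a1 was at 434, 336, 287 and 351 CPM in layer 5 and 6-like nuclei, against 87.8, 108, 101 and 84.6 CPM in layer 2-4-like nuclei (1.96 ± 0.12, edgeR adjusted p = 4.16e-42). Every deep-layer unit was above every cortical microglia-like unit, and every upper-layer unit below. Layer 6-like nuclei had 390, 316, 432 and 405 CPM and layer 5-like nuclei had 484, 347, 206 and 311 CPM, so the sublayers overlap. Excitatory nuclei with no named subtype split as well: cluster 4 had 422, 256, 364 and 204 CPM, while cluster 5 had 38.6, 58.0, 54.5 and 57.2 CPM. Col6a2 was at 52.6, 45.2, 30.7 and 25.6 CPM in the deep layers, against 16.7, 26.7, 14.7 and 16.6 CPM in the upper layers (1.17 ± 0.29, edgeR adjusted p = 0.00111), a call that was lost without number 0 (edgeR adjusted p = 0.21).

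A group of 3 further collagens was raised mainly in layer 6-like nuclei. Col12a1 was at 127, 80.7, 58.0 and 47.6 CPM in the deep layers, against 18.3, 26.7, 18 and 25.8 CPM in the upper layers (2.05 ± 0.23, edgeR adjusted p = 3.63e-15), with layer 6-like nuclei at 197, 132, 96.0 and 69.0 CPM and layer 5-like nuclei at 49.2, 51.1, 37.1 and 31.8 CPM. Col23a1, a transmembrane collagen, was at 31.2, 25.8, 23.9 and 36.6 CPM in the deep layers, against 5.56, 6.68, 1.63 and 7.36 CPM in the upper layers (2.43 ± 0.43, edgeR adjusted p = 9.03e-07). Col5a1 was at 66.2, 42.0, 20.5 and 58.6 CPM in the deep layers, against 27.2, 15.02, 14.7 and 11.04 CPM in the upper layers (1.39 ± 0.27, edgeR adjusted p = 1.96e-05). For each of the 3 genes every layer 6-like unit exceeded every layer 5-like unit: Col23a1 had 48.0 to 61.4 CPM in layer 6-like nuclei, against 5.11 to 25.4 CPM in layer 5-like nuclei, and Col5a1 had 57.6 to 115 CPM, against 0 to 20.4 CPM. Cortical microglia-like nuclei held Col12a1 at 11.1 to 65.4 CPM and Col5a1 at 7.26 to 44.7 CPM, under the layer 6-like levels. The 2 layers were not tested against each other, and with numbers 1 to 3 alone 5 members were called between deep and upper layers.

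Col22a1 went the other way between the deep layers, at 28.7, 25.5, 37.1 and 25.4 CPM in layer 5-like nuclei, against 0 to 8.8 CPM in layer 6-like nuclei and 3.3 to 14.7 CPM in layer 2-4-like nuclei, on 23 UMIs in layer 5-like nuclei and with no test. Col19a1 was at 46.7, 19.4, 54.6 and 51.2 CPM in the deep layers, against 137, 145, 171 and 147 CPM in the upper layers (-1.78 ± 0.18, edgeR adjusted p = 3.05e-17). Col11a1 was at 29.2, 9.68, 30.7 and 22.0 CPM in the deep layers, against 101, 63.4, 73.5 and 75.4 CPM in the upper layers (-1.78 ± 0.24, edgeR adjusted p = 8e-11). For both the deep layers lay below cortical microglia-like nuclei and the upper layers within or near their range. Col16a1 was at 37.5 to 83.9 CPM in the deep layers, against 38.4 to 49.7 CPM in the upper layers, a small difference that several settings lost (0.66 ± 0.20, edgeR adjusted p = 0.0115). Its layer 6-like units, at 76.8 to 140 CPM, also lay above its layer 5-like units, at 15.9 to 61.5 CPM. The summed level of 11 meningeal markers was 9.7 to 17.1 CPM in the deep layers and 5.0 to 17.2 CPM in the upper layers.

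Cortical inhibitory neuron-like nuclei were higher than excitatory neuron-like nuclei in Col19a1, Col25a1, Col11a1, Col14a1, Col24a1 and Col26a1 and lower in Col6a1, Col4a1, Col12a1 and Col6a2. Of 15 members tested 10 were called, or 66.7%, against 18.2% of 10175 genes (9.1% higher and 9.14% lower). The classes did not overlap for 7 members, against 15.6% of genes, and the members' median was -0.13. Of the 10 called members, 8 reached the filter's 10.6 CPM in all 4 units of the lower class too, Col24a1 in 1 and Col14a1 in none. Col19a1 was at 534, 538, 282 and 319 CPM in inhibitory nuclei, against 112, 94.7, 113 and 106 CPM in excitatory nuclei (1.94 ± 0.11, edgeR adjusted p = 1.94e-24). Col25a1 was at 101, 112, 90.4 and 67.7 CPM in inhibitory nuclei, against 27.7, 28.4, 26.7 and 19.5 CPM in excitatory nuclei (1.81 ± 0.19, edgeR adjusted p = 2.48e-12). At the coarser clustering resolution of 1.0 this fell to 0.35 and lost its call (edgeR adjusted p = 0.602), while the other 12 alternatives kept it. Inhibitory nuclei were above cortical microglia-like nuclei for both genes, which held Col25a1 at 29.1 to 44.7 CPM.

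Col11a1 was at 202, 177, 105 and 87.6 CPM in inhibitory nuclei, against 79.9, 41.3, 48.6 and 45.9 CPM in excitatory nuclei (1.35 ± 0.15, edgeR adjusted p = 2.89e-11). Col14a1, a fibril-associated chain of dense connective tissue, was at 30.8, 23.1, 21.7 and 27.9 CPM in inhibitory nuclei, against 0.396, 1.35, 0.685 and 2.09 CPM in excitatory nuclei (4.51 ± 0.55, edgeR adjusted p = 3.02e-10). It had 33 UMIs in inhibitory and 7 in excitatory nuclei, so it passed the filter through the inhibitory nuclei, where it is high, and had to differ. Within inhibitory nuclei Col14a1 was at 71.6, 26.6, 49.5 and 76.1 CPM in the Adarb2/Vip-like interneurons of cortex, and at 108, 106 and 240 CPM in the 3 hippocampal units with at least 10 such nuclei. Col24a1, a minor fibril-forming chain, rose in inhibitory nuclei (1.64 ± 0.34, edgeR adjusted p = 0.000119), a call that was lost without doublet calls (1.11, edgeR adjusted p = 0.117).

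Col6a1 was at 90.1, 104, 105 and 51.8 CPM in inhibitory nuclei, against 161, 184, 162 and 168 CPM in excitatory nuclei (-0.97 ± 0.15, edgeR adjusted p = 1.82e-07), and inhibitory nuclei lay below every microglia-like unit. Col4a1 was lower by -0.63 ± 0.17 on the log2 scale (edgeR adjusted p = 0.00499), Col12a1 by -0.76 ± 0.26 (edgeR adjusted p = 0.0282) and Col6a2 by -0.95 ± 0.34 (edgeR adjusted p = 0.0396). Together with Col26a1 (0.70 ± 0.26, edgeR adjusted p = 0.046) these weaker calls were lost in many settings, and 6 members were called with DESeq2 and with numbers 1 to 3 alone.

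Among cortical interneurons, Sst-like nuclei were higher than Pvalb-like nuclei in 2 of the 3 members tested, against 4.41% of 2016 genes (2.68% higher and 1.74% lower). Col19a1 reached the filter's 109.5 CPM in all 4 units of both classes, and Col11a1 in 3 Sst-like and 2 Pvalb-like units. The share of members called is thus no result about the family. Col19a1 was at 985, 802, 621 and 387 CPM in Sst-like nuclei, against 485, 405, 267 and 391 CPM in Pvalb-like nuclei (0.88 ± 0.20, edgeR adjusted p = 0.00065). In hippocampus Sst-like nuclei held Col19a1 at 1517, 955, 944 and 592 CPM. Col11a1 was at 499, 417, 107 and 232 CPM in Sst-like nuclei, against 243, 198, 82.9 and 99.7 CPM in Pvalb-like nuclei (1.01 ± 0.28, edgeR adjusted p = 0.0127). In both genes the ranges of the classes overlap, and DESeq2 called 0 members and numbers 1 to 3 alone gave 0. Col25a1 did not pass the filter in this comparison, and it was at 175, 0, 235 and 207 CPM in Sst-like nuclei, against 59.3, 43.1, 27.6 and 16.6 CPM in Pvalb-like nuclei, with number 1 of the Sst-like units at 0.

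Adarb2/Vip-like nuclei of cortex were lower than the sum of Sst-like and Pvalb-like nuclei in 2 of 5 members tested, against 6.48% of 3750 genes (3.52% higher and 2.96% lower). Col19a1 reached the filter's 66.1 CPM in all 4 units of both, and Col11a1 in 2 Adarb2/Vip-like units and 4 units of the sum. The share of members called is thus no result about the family. Col11a1 was at 51.2, 88.7, 124 and 10.9 CPM in Adarb2/Vip-like nuclei, a mean of 68.6 ± 48.6 against 196 ± 103 CPM (-1.61 ± 0.27, edgeR adjusted p = 1.04e-06). Col19a1 averaged 343 ± 204 CPM in Adarb2/Vip-like nuclei and 470 ± 117 CPM in the other interneurons (-0.51 ± 0.15, edgeR adjusted p = 0.0183), with ranges that overlap and a call that was lost in most other settings. With numbers 1 to 3 alone 1 member was called, and with DESeq2 0. Col25a1 was at 113, 213, 90.7 and 76.1 CPM in Adarb2/Vip-like nuclei and did not pass the test (0.71 ± 0.29, edgeR adjusted p = 0.152).

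In hippocampus, pyramidal neuron-like nuclei were higher than dentate granule-like nuclei in Col11a1, Col4a1 and Col4a2, the only members that passed the filter. They passed it through the pyramidal units, where they are high. No dentate granule-like unit reached its 35.8 CPM (CA1) or 44.1 CPM (CA3) for Col11a1 or Col4a1, on 13 UMIs and 38 UMIs over the 4 units. For Col4a2 3 units reached the level of CA1 and 1 that of CA3. That all 3 were called is thus no result about the family. In CA1-like against dentate granule-like nuclei 24.4% of 5959 genes were called (12.5% higher), and in CA3-like against dentate granule-like nuclei 24.1% of 5206 genes (12.7% higher). The comparisons share the dentate granule-like nuclei, so their values are given side by side only. Every pyramidal unit was above every granule unit for these 3 genes, as for 23.2% of genes in either direction with CA1 and 24.5% with CA3.

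Col11a1 was at 276, 353, 325 and 262 CPM in CA1-like nuclei and 250, 124, 141 and 216 CPM in CA3-like nuclei, against 7.12, 18.1, 0 and 9.99 CPM in dentate granule-like nuclei. The log2 fold change was 5.13 ± 0.28 for CA1 (edgeR adjusted p = 5.78e-55) and 4.46 ± 0.38 for CA3 (edgeR adjusted p = 8.39e-14). CA1-like nuclei were above the hippocampal microglia-like range of 37.3 to 152 CPM, and the 2 lower CA3-like units were within it.

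Col4a1 was at 190, 166, 215 and 184 CPM in CA1-like nuclei and 250, 294, 216 and 233 CPM in CA3-like nuclei, against 23.7, 33.2, 15.9 and 29.98 CPM in dentate granule-like nuclei (2.95 ± 0.25 for CA1, edgeR adjusted p = 3.59e-26; 3.38 ± 0.25 for CA3, edgeR adjusted p = 9.54e-16). Col4a2 was at 190, 217, 133 and 151 CPM in CA1-like nuclei and 515, 364, 253 and 302 CPM in CA3-like nuclei, against 64.1, 36.2, 28.6 and 42.5 CPM in dentate granule-like nuclei (2.11 ± 0.23 for CA1, edgeR adjusted p = 8.37e-17; 3.18 ± 0.20 for CA3, edgeR adjusted p = 1.26e-17). Pyramidal levels of both type IV chains lay within or above the range of hippocampal endothelial-like nuclei and exceeded those of microglia-like nuclei, at 0 to 50.7 CPM for Col4a1 and 22.2 to 102 CPM for Col4a2. The summed level of 9 endothelial markers was 45.0 to 110.6 CPM in CA1-like and 8.6 to 93.0 CPM in CA3-like nuclei. It was 27.2 to 135.2 CPM in dentate granule-like and 17525 to 18151 CPM in endothelial-like nuclei. Mecom was at 0 in all 3 neuron classes, and Pecam1 and Ptprb were at 0 in CA3-like nuclei. Mural markers summed to 5.8 to 31.6, 14.9 to 42.9 and 39.2 to 83.0 CPM in the 3 neuron classes. The part of endothelial or mural RNA in the type IV levels was not tested.

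**Figure D4:**
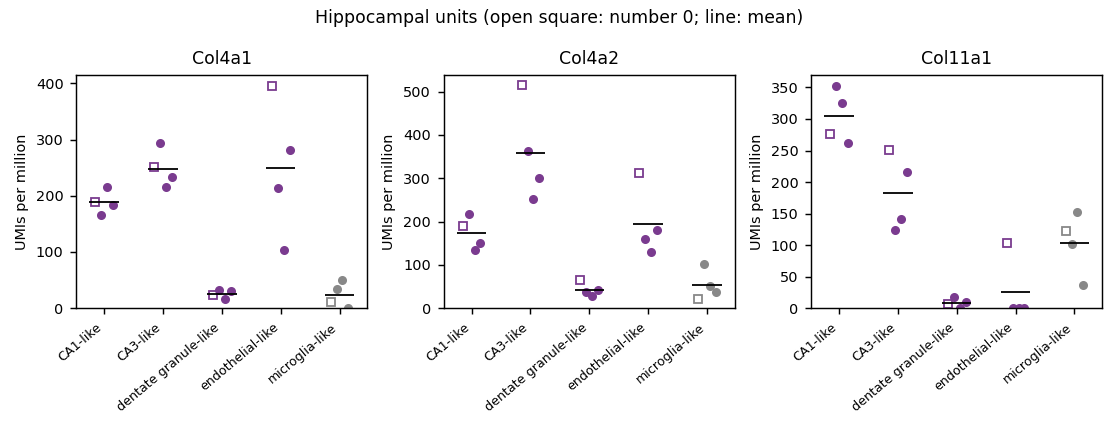
Levels of 3 collagens in classes of hippocampal nuclei, in CPM; open squares are number 0, circles numbers 1 to 3, lines are means and microglia-like nuclei are grey. Col11a1, Col4a1 and Col4a2 sit at 124 CPM or more in every unit of CA1-like and CA3-like nuclei and at most at 64.1 CPM in every unit of dentate granule-like nuclei.

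Collagen levels in further classes of nuclei from the hippocampal libraries are given with no test. CA3-like nuclei held Col15a1 at 85.8, 77.4, 14.9 and 25.9 CPM, with numbers 0 and 1 high. An unnamed cluster led by Glra1 and Tfap2b held Col11a1 at 124, 233, 263 and 336 CPM, Col16a1 at 341, 169, 197 and 185 CPM and Col25a1 at 155, 111, 167 and 107 CPM. This cluster held 161 of the 945 Col11a1 UMIs of the hippocampal libraries. A thalamic-like class of 184 nuclei held 6.04% of all UMIs of these libraries. Both classes are part of the hippocampal values over all nuclei. The 26 choroid plexus-like nuclei, all of number 0, held 298 UMIs of Col9a3, or 4787 CPM, with Col4a5 at 225 CPM on 14 UMIs and Col4a3 and Col4a4 at 177 CPM on 11 UMIs each. The gene pairs Col4a3 and Col4a4, and Col4a5 and Col4a6, encode the chains of specialised type IV networks and lie side by side, 71 bases and 1308 bases apart.

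Ependymal-like nuclei, 51 in all and from hippocampus, held Col5a3 at 559, 245, 442 and 279 CPM, on 22 UMIs in all. They held Col4a5 at 239, 81.8, 73.6 and 140 CPM, on only 8 UMIs in all. At least 10 such nuclei were present in only 2 of the units. Oligodendrocyte precursor-like nuclei held Col11a2 at 195, 490, 560 and 73.6 CPM in hippocampus, against 240, 36.9, 31.8 and 25.2 CPM in cortex, with ranges that overlap. In hippocampal precursor-like against mature oligodendrocyte-like nuclei no member passed the filter (418 genes tested, 47.6% called). With no filter Col11a2 (1.88, edgeR adjusted p = 0.0221) and Col9a3 (1.86, edgeR adjusted p = 0.0442) were higher. That fit covers another set of genes, so the share called with the filter is no background for it, and nothing about the family is read from it.

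Meningeal fibroblast-like nuclei, which carry the markers of the fibroblasts that cover the brain, were few, at 141 in all. The 6 units with at least 10 such nuclei were set against endothelial-like nuclei of the same units, and no member passed the filter on low counts (1175 genes tested, 71.4% called, 41.4% with ranges apart). With no filter 40 members were tested, 9 were higher and 2 lower, against 4.14% and 11.4% of 16779 genes. The median log2 fold change of all genes was -0.15 in the filtered fit and -0.28 with no filter, and the scaling of DESeq2 moved it to -0.39.

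Col1a2 was at 892 and 1117 CPM in the meningeal nuclei of hippocampus numbers 0 and 2 and at 251, 249, 182 and 90.4 CPM in those of cortex numbers 0 to 3, against 11.1 to 88.0 CPM in the endothelial-like units (2.02 ± 0.36, edgeR adjusted p = 4.76e-07). Every meningeal unit was above every endothelial unit. Col1a1, the α1 chain, was at 45.2 to 559 CPM in meningeal nuclei, against 0 to 25.8 CPM in endothelial nuclei (3.31 ± 0.63, edgeR adjusted p = 3.92e-06). Col9a2, a type IX chain, was at 27.9 to 186 CPM in meningeal nuclei, against 0 to 11.1 CPM in endothelial nuclei (4.26 ± 0.90, edgeR adjusted p = 4.65e-05). Each of these 2 genes also kept the groups apart, on 1 to 6 UMIs per meningeal unit.

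Of the remaining higher genes, Col5a1, Col3a1, Col26a1, Col23a1, Col6a1 and Col11a1 had log2 fold changes of 1.56 to 3.17. Cortical meningeal-like nuclei carried excitatory markers at 2565 to 3319 CPM summed over 8 genes, all 8 detected, close to the 3156 to 3918 CPM of cortical layer 5 and 6-like nuclei, and meningeal markers at 1341 to 2789 CPM. The part of neuronal RNA in the levels of Col6a1, Col11a1, Col23a1 and Col26a1 in this class was not tested. The type IV chains were lower in meningeal nuclei, Col4a1 at -1.86 ± 0.40 (edgeR adjusted p = 5.41e-05) and Col4a2 at -1.64 ± 0.42 (edgeR adjusted p = 0.00133). Col4a1 held 0 to 135.6 CPM in the meningeal units, against 103 to 396 CPM in the endothelial-like units, and the ranges overlap. Mural-like nuclei were 23 in all, too few for a unit value beyond number 0 of hippocampus, which held 10.

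The other genes of the collagen pathway were taken as 6 lists, and the median log2 fold change of all genes was -0.01. Of all genes 9.19% were higher and 8.53% lower, and with 8 to 20 genes tested per list nothing particular to the pathway is read from the counts. Among enzymes and chaperones of collagen biosynthesis 2 of 20 tested were higher in hippocampus and 0 lower (median -0.01). Plod2 had a mean of 50.8 ± 10.3 CPM in hippocampus, against 26.0 ± 3.87 CPM in cortex (0.92 ± 0.18, edgeR adjusted p = 0.00324) and Plod1 rose as well (1.15 ± 0.27, edgeR adjusted p = 0.00923); both are lysyl hydroxylases, which modify collagen before it folds. Of the procollagen processing and crosslinking genes 1 of 8 was higher (median 0.09), Loxl3, a lysyl oxidase (1.13, edgeR adjusted p = 0.0308). Of the collagen receptors 1 of 8 was higher (median 0.05), Ddr1, a receptor tyrosine kinase, at 45.0 ± 7.47 CPM in hippocampus and 27.3 ± 3.50 CPM in cortex (0.69 ± 0.15, edgeR adjusted p = 0.00679).

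Basement membrane partners had 2 of 10 higher (median 0.11). The laminin chains Lamb1 (0.82, edgeR adjusted p = 0.0139) and Lama2 (0.77, edgeR adjusted p = 0.0277) were higher. Fibril partners had 2 of 9 higher and 1 lower (median 0.22): Tnxb (2.75, edgeR adjusted p = 0.000254) and Fbln1 (1.19, edgeR adjusted p = 0.02) were higher and Postn, which is periostin, was lower (-2.13, edgeR adjusted p = 0.000513). Of the collagen degradation genes 1 of 9 was higher (median 0.12), Timp4, a metalloproteinase inhibitor (1.62, edgeR adjusted p = 0.00747). In meningeal fibroblast-like against endothelial-like nuclei, 6 of the 9 pathway genes tested were lower and 0 higher, where 39.6% of all 1175 genes were lower and 71.4% called in either direction. The lower ones were the receptors Itgb1 (-2.44) and Itga1 (-2.94), the laminin Lamb2 (-1.92), Sparc (-3.04), Fn1 (-1.21) and Timp3 (-1.32), with edgeR adjusted p-values between 3.1e-12 and 0.000439.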

How the data were processed

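Single nuclei of archived mouse brain were profiled by DroNc-seq, and per the labels' protocols hippocampus and prefrontal cortex were microdissected, frozen and homogenised to nuclei. Per the submitters' processing notes, STAR 2.4.0a24, Seurat and the build mm10 were used; the counting settings, including strand, are not given in the sources used here. The authors deposited 1 table of UMI counts per gene and nucleus, not normalized, with filters on nuclei applied before deposit that are not stated. Of its columns, 11624 matched the 10 labelled libraries by name and 1689 did not and were not used. Any 2 libraries shared at most 3 barcodes. The lowest chi-square per degree of freedom between 2 libraries of a region was 1.34, so none was treated as a repeat.

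Nuclei were clustered with scanpy 1.11.5 and leidenalg 0.10.2 (2000 variable genes, 40 principal components, 20 neighbours, resolution 2.0, 29 clusters) with all collagens left out of the features. Clusters were named from marker lists; the naming thresholds and a split of mixed clusters were set after reading the clusters. Doublet calls (1778 nuclei, 15.3%) stayed in the main fits. Raw counts were summed per class and unit with at least 10 nuclei and at least 3 units per group, and tested in R 4.3.3 with edgeR 4.0.16 (quasi-likelihood test after filterByExpr and TMM scaling; p-values adjusted by Benjamini-Hochberg over all genes tested and called under 0.05). Comparisons of classes had the unit as a block, since both classes come from the same libraries. DESeq2 1.42.0 was an alternative. Log2 fold changes carry the SE from the fit. Counting error is only part of the error, and the small number of units limits precision. A member can pass filterByExpr through 1 group alone, so for called members the units of the lower group over its level are given. The model was tested on simulated counts. Gene positions come from the GENCODE annotation of GRCm38, the assembly of mm10.

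Unit values are given for members called over all nuclei or with at least 200 UMIs. For each further comparison that tested members after the filter, the called members were named. The members and lists were chosen with earlier results of these data known. For 1 of the pathway genes called between regions, the result is not reported here.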

Additional observations from a re-analysis of the deposited data

Results flagged for a closer look

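In groups of 4 units, 12 of 106 checked levels had a unit that stood apart by Dixon's test (critical ratio 0.829), and chance gives about 1 in 20; 6 of the 12 were number 0. In hippocampus over all nuclei, number 0 was apart for Col6a1 (57.4 CPM, the others 21.3 to 25.6), Col9a3 (120.0 CPM, the others 19.5 to 27.7) and Col19a1 (80.3 CPM, the others 53.4 to 55.2). In excitatory neuron-like nuclei of hippocampus, number 0 was apart for Col26a1 (13.3 CPM, the others 0.0 to 1.1). In cortex, number 0 was apart for Col4a1 over all nuclei (139.5 CPM, the others 75.5 to 77.0) and in excitatory neuron-like nuclei (141.6 CPM, the others 71.9 to 80.7).

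The other 6 lay low except for 1. Number 1 of hippocampus was low for Col16a1 over all nuclei (42.1 CPM, the others 54.0 to 56.1), and number 3 was low for Col12a1 in excitatory neuron-like nuclei (7.8 CPM, the others 16.0 to 16.5). In cortex over all nuclei, number 1 was low for Col1a2 (10.1 CPM, the others 15 to 15.9) and number 3 for Col25a1 (24.6 CPM, the others 34.5 to 35.7). Number 2 was low for Col16a1 in layer 5 and 6-like nuclei (37.5 CPM, the others 76.8 to 83.9), and number 1 was high for Col6a2 in layer 2-4-like nuclei (26.7 CPM, the others 14.7 to 16.7). What sets number 0 apart was not tested.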

How the results depend on the processing

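The named calls were refitted in 694 alternatives, of which 19 left the gene out through the filter on low counts and 1 gave no adjusted p. Of the 674 with a value, 582 kept their direction and their side of the threshold, 92 kept the direction and missed the threshold, and 0 reversed. Called members are counted here. By region over all nuclei, 11 were called, 9 to 13 when 1 unit was left out, 13 with the title number as a replicate block and 10 with DESeq2. In excitatory neuron-like nuclei 7 were called, 6 to 9 when 1 unit was left out. In inhibitory neuron-like nuclei the 1 call became 0 with DESeq2 (which gave Col6a1 no adjusted p), and the gene was not tested at resolutions 1.0 and 4.0, with collagens among the clustering features and without doublet calls (0 each), nor with numbers 1 to 3 alone, where 3 other members were called; 0 to 2 were called when 1 unit was left out. In astrocyte-like nuclei 1 became 5 at resolution 1.0 and 2 at resolution 4.0, with collagens among the features and with no filter. In endothelial-like nuclei 0 became 1 with no filter, Col19a1 (-5.41), and in oligodendrocyte precursor-like nuclei 0 became 1 with at least 20 nuclei per unit.

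By class, layer 5 and 6-like against layer 2-4-like nuclei gave 8, 4 at resolution 4.0, 5 with numbers 1 to 3 alone and 5 to 9 when 1 unit was left out. Inhibitory against excitatory nuclei gave 10, 6 with DESeq2 and with numbers 1 to 3 alone, 5 with no replicate block and 6 to 9 when 1 unit was left out. Sst-like against Pvalb-like nuclei gave 2, 0 with DESeq2, with collagens among the features and with numbers 1 to 3 alone, 1 with no filter and with no replicate block, and 0 to 2 when 1 unit was left out. Adarb2/Vip-like nuclei gave 2, 0 with DESeq2 and at resolution 1.0, 1 at resolution 4.0, without doublet calls, with no replicate block and with numbers 1 to 3 alone, and 1 to 2 when 1 unit was left out. CA1 kept its 3 calls in each setting, and CA3 had 7 with no filter. Meningeal nuclei gave 0, 2 without doublet calls, 11 with no filter and 0 to 1 when 1 unit was left out, and precursor-like nuclei gave 0, 2 with no filter and 0 to 1. The cause was not tested.

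Endothelial-like nuclei by region and meningeal nuclei at resolution 4.0, and Sst-like nuclei at resolutions 1.0 and 4.0, had too few units for a value. Same-numbered units of the 2 regions had deviations that correlated at 0.48, 0.13, 0.03 and 0.09 (numbers 0 to 3), not over 0.1 in every pair, so the numbers were not treated as pairing the regions. With 4 units per region and 20 to 77 cortical astrocyte-like nuclei per unit, small classes and collagens under 30 UMIs lie beyond what this depth can show. The fits without choroid plexus-like and ependymal-like nuclei and without layer 2-4-like nuclei were chosen after seeing the data.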
